A study of Callithrix jacchus with 54 samples.

Results

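The libraries described here follow embryonic stem cells of the common marmoset (cjESCs) in which SOX17 was enforced in a medium without BMP4. They are 8 libraries of the SOX17 + LSE condition, 2 each at 12, 24, 48 and 96 h, set against the 2 libraries of the starting cjESCs, and make up 10 of the 54 libraries in the series. Their labels define the set, and earlier results of these data were known when it was chosen. The series as a whole measured, by bulk RNA sequencing, how marmoset pluripotent cells are turned into primordial germ cell-like cells (cjPGCLCs), with and without transgenes and inhibitors. The 8 libraries of the SOX17 + BLSE condition, which adds BMP4 to the same medium at the same times, are used here only to show where the course without BMP4 differs.

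All of these cells came from 1 transgenic derivative of the line CMES40. The line carries reporters for 2 germ cell genes, BLIMP1-tdTomato (BT, at the PRDM1 gene) and NANOS3-eGFP (NG), and the transgenes rtTA, tetO-BLIMP1, SOX17-GR and DD-TFAP2C, which the labels give to the cjESCs too. The labels write the last transgene with a different number in each sample, and they were read as 1 genotype. SOX17-GR is a fusion of SOX17 with the glucocorticoid receptor that dexamethasone brings into action. Only SOX17 was enforced in the libraries used here, and whether a read came from a transgene or from the marmoset gene cannot be told apart. The starting cjESCs were kept on mouse fibroblast feeders in the activin A and bFGF medium DK20FA, received no treatment, and were sorted for the surface antigen TRA-1-60. For induction, the cells were dissociated, aggregated and cultured with LIF, SCF, EGF and Rock inhibitor (LSE), or with BMP4 in addition (BLSE). The aggregates at 12, 24 and 48 h were not sorted, whereas those at 96 h were sorted for BT. The labels call the sorted cells differentiated cells without BMP4 and cjPGCLCs with it. PRDM1 at 96 h is therefore in part what the sort selected, and the step from 48 to 96 h joins time with sorting. No library of this line in LSE without SOX17 was analysed here, so a change from cjESCs covers SOX17, dexamethasone, aggregation, the loss of activin A and bFGF, and the added factors, which cannot be told apart.

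SOX17 is an HMG-box transcription factor with roles in both the endoderm and, in primates, the germ line, where it acts upstream of PRDM1 and with TFAP2C to specify primordial germ cells (PGCs). BMP4 from extraembryonic tissue is the usual inductive signal for PGCs, and it acts through SMAD proteins on targets such as the ID and MSX genes. WNT and NODAL signals pattern the neighbouring primitive streak, and cells leaving the streak under high NODAL form definitive endoderm, in which SOX17 is paired with FOXA2 rather than with TFAP2C.

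The files give each gene as TPM, transcripts scaled to a fixed total. The unit corrects for transcript length and sequencing yield. Each log2 change below is a difference of log2(TPM + 1), given ± SE with a Benjamini-Hochberg adjusted p from a single limma fit across all 54 libraries. That scale understates the changes of low genes. A differentially expressed gene (DEG) differed by over 4-fold, had an adjusted p below 0.01 and reached a mean log2 level of 1.5 over both groups. The words "rose", "fell", "higher" and "lower" refer to DEGs. A test of 2 against 2 libraries alone cannot give an exact permutation p under 0.33, so every p rests on the spread pooled over the 27 groups.

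The 10 libraries listed 11992 to 12334 of 14812 genes above 0, and the 2 libraries of each SOX17 + LSE time and of cjESCs correlated at 0.986 to 0.991 across the 11197 genes tested. The summed level of the 6 ESC markers lay between 3576 and 5718.5 TPM in the course, against 4843 to 5657 TPM in cjESCs. POU5F1 made up most of this sum, which does not show the fall of SOX2, also in the set, described below. The sum of the 8 PGC markers was 754 to 931 TPM in cjESCs and reached 2879 and 3153 TPM in the sorted libraries. The 7 endothelial and blood markers summed to 34.8 to 47.5 TPM in cjESCs and 73.3 to 92.5 TPM at 48 h, with TAL1 and GATA1 under 1 TPM. The 3 trophoblast markers in the table summed to 40.6 to 67.1 TPM in cjESCs and 8.66 to 11.1 TPM at 96 h. Neural markers summed to at most 26 TPM in every library, with SOX1 and HES5 under 1 TPM. Of the 8 fibroblast markers, 7 were in the table. They summed to 212 to 248 TPM in cjESCs, 251 to 351 TPM at 12 h, 277 to 389.5 TPM at 48 h and 134 to 190.3 TPM at 96 h. Among them POSTN was under 1 TPM throughout, and so were COL3A1 and LUM at 96 h. In bulk samples, fewer cells of a type and less RNA per cell cannot be told apart.

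The number of DEGs grew from 12 to 48 h and was largest in the sorted cells. Against cjESCs, 48 genes rose and 38 fell at 12 h (0.429% and 0.339% of the 11197 tested). At 24 h 58 rose and 43 fell (0.518% and 0.384%), and at 48 h 91 rose and 72 fell (0.813% and 0.643%). In the sorted cells at 96 h 294 rose and 218 fell (2.63% and 1.95%). The steps between times were small until the last. From 12 to 24 h, 2 genes rose and 4 fell (0.0179% and 0.0357%). From 24 to 48 h 8 rose and none fell (0.0714% and 0%), and none fell past the same fold and level at an unadjusted p under 0.05 in that limma fit either. From 48 to 96 h, 98 rose and 70 fell (0.875% and 0.625%). The median change of all genes from cjESCs was 0, 0.09, 0.06 and 0.15 on the log2 scale at 12, 24, 48 and 96 h. Scaling the libraries to each other brought the 96 h median to 0.00 or 0.01 and turned the split there to 233 up and 264 down with median ratios, and to 240 up and 267 down with quantile normalization. At 24 h the split became 48 up and 51 down or 49 up and 52 down, and from 48 to 96 h it became 78 up and 75 down or 81 up and 84 down, in the same order. These comparisons share the cjESC libraries, and their counts are not independent of each other.

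**Figure D1:**
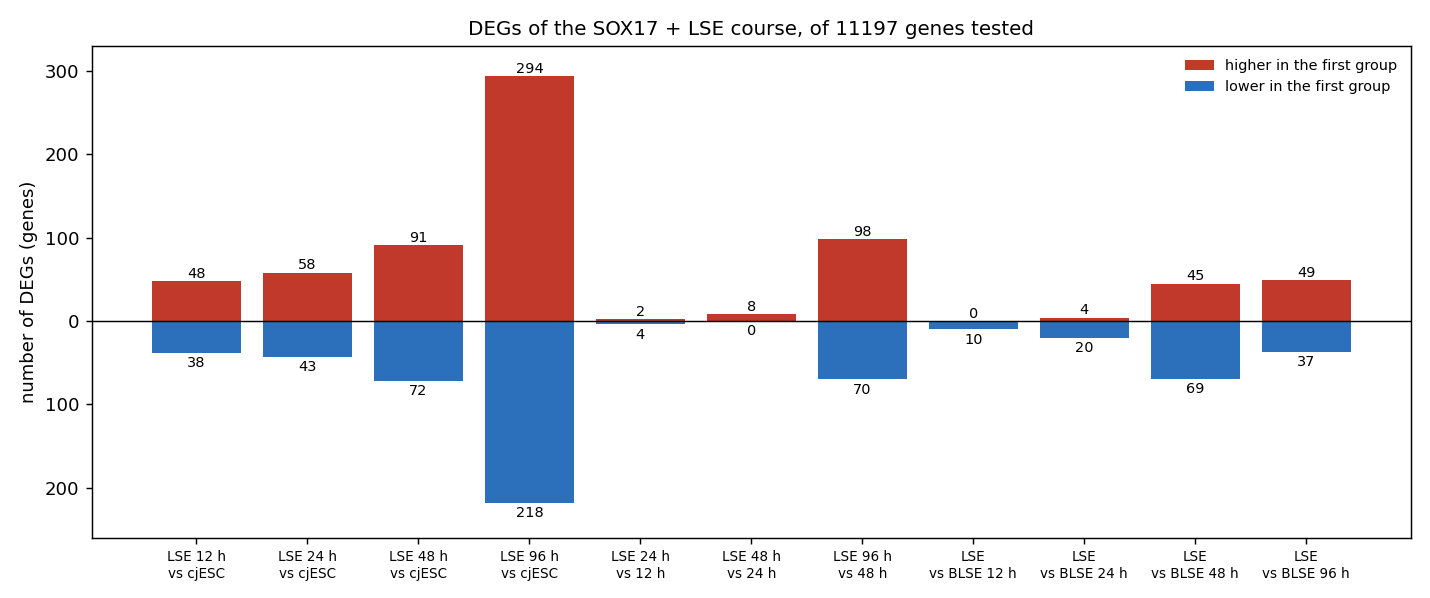
Numbers of DEGs (y axis, genes) in each comparison of the SOX17 + LSE course (x axis), with higher genes drawn upwards and lower genes downwards. The comparison of 96 h with cjESCs has the tallest bars, 294 up and 218 down, and the steps from 12 to 24 h and from 24 to 48 h the shortest.

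PGC genes rose at different times, and only some of them before the sort. SOX17, PRDM1 and NANOS3 rose by 12 h, whereas TFAP2C, DND1, SOX15, TCL1A and TCL1B passed the test only at 96 h. Of the 16 genes of the PGC list, 15 were in the table and all 15 were tested. DEGs among them numbered 3 at 12 h, 2 at 24 h, 3 at 48 h and 8 at 96 h, all upward. Of all genes tested, 0.429%, 0.518%, 0.813% and 2.63% rose at these times. The list medians were 0.34, 0.45, 0.58 and 2.04 on the log2 scale beside the all-gene medians above. SOX17 (gene 100396115) stood at 27.6 and 36.2 TPM in cjESCs, 165 and 175 TPM at 12 h, 109.8 and 122 at 24 h, 216 and 166 at 48 h, and 386 and 366 TPM at 96 h. Every library of the course lay above both cjESC libraries. The log2 change was 2.39 ± 0.29 with an adjusted p of 1.9e-07 at 12 h, 2.54 ± 0.29 with an adjusted p of 2.11e-08 at 48 h and 3.53 ± 0.29 with an adjusted p of 1.75e-12 at 96 h. At 24 h it was 1.84, under the 4-fold threshold, though it passed without cjESC replicate 2 (2.03, adjusted p = 9.75e-05). How much of this level came from the SOX17-GR transgene cannot be told apart.

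PRDM1 (gene 100401970), which encodes BLIMP1, a repressor of somatic genes in PGCs, stood at 17.6 and 10.5 TPM in cjESCs, 88.5 and 87.5 TPM at 12 h, 91.7 and 93.6 at 24 h, 60.7 and 65.1 at 48 h, and 201 and 172 TPM at 96 h. It rose at every time, by 2.60 ± 0.21 with an adjusted p of 3.74e-11 at 12 h and 2.68 ± 0.21 with an adjusted p of 9.87e-12 at 24 h. The rise was 2.12 ± 0.21 with an adjusted p of 1.17e-09 at 48 h and 3.67 ± 0.21 with an adjusted p of 1.89e-16 at 96 h. The 48 h libraries were the lowest of the course, and there the call was lost in leaving out cjESC replicate 2. For PRDM1 at 48 h against cjESCs, the log2 change was 1.78 (adjusted p = 1.32e-06) without cjESC replicate 2. NANOS3 (gene 100405226), an RNA-binding protein that protects migrating PGCs from apoptosis and the second reporter gene, was almost absent at the start, with 0.42 and 0.74 TPM in cjESCs, 9.56 and 19.7 TPM at 12 h, 32.6 and 33.7 at 24 h, 42.2 and 39.6 at 48 h, and 137 and 183 TPM at 96 h. From 12 h on, both libraries of each time lay above both of the time before, but no step between these times passed as a DEG. The log2 change grew from 3.23 ± 0.29 with an adjusted p of 4.51e-10 at 12 h to 6.66 ± 0.29 with an adjusted p of 1.97e-19 at 96 h.

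TFAP2C (gene 100400638), the partner of SOX17 in PGC enhancers, was already at 174 and 182 TPM in cjESCs and stood at 449 and 494 TPM at 12 h, 356 and 433 at 24 h, 276 and 289 at 48 h, and 859 and 756 TPM at 96 h. It passed the test at 96 h alone, by 2.17 ± 0.18 with an adjusted p of 4.19e-12, and missed the 4-fold threshold there once libraries were scaled by median ratios. DND1 (gene 100396355), a vertebrate germ cell RNA-binding protein, had 59 and 61.1 TPM in cjESCs, 61.7 and 86.5 TPM at 48 h and 311 and 265 TPM at 96 h, a log2 change of 2.24 ± 0.25 with an adjusted p of 3.46e-09. TCL1A and TCL1B, paralogous coactivators of AKT found in early germ cells, were the PGC genes that rose from 48 to 96 h. TCL1A (gene 108593658) did not exceed 1.29 TPM in any library before 96 h, where it had 34.6 and 33.7 TPM. TCL1B (gene 100406747) went from 4.66 and 6.11 TPM at 48 h to 67.7 and 70.4 TPM at 96 h. The log2 steps were 4.31 ± 0.41 with an adjusted p of 4.28e-10 and 3.46 ± 0.40 with an adjusted p of 2.99e-08, and as paralogs their reads could be split unevenly.

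The call of SOX15, an HMG-box factor of primate PGCs, at 96 h was lost in leaving out either of 2 libraries and with either scaling. For SOX15 at 96 h against cjESCs, the log2 change was 1.94 (adjusted p = 1e-05) without SOX17 + LSE 96 h replicate 1 and 1.69 (adjusted p = 3.04e-05) without cjESC replicate 2. This SOX15 call was also lost with median-ratio scaling and with quantile normalization. KIT, the receptor for SCF, was low at 1.61 and 1.95 TPM at 96 h (1.36). PDPN, a PGC surface protein, had 620 and 444 TPM in cjESCs and 1143 and 1035 TPM at 96 h (1.05), and neither passed. DPPA3, KLF4, ARID5B, TFCP2L1 and ALPL did not pass at any time. In the late germ cell list, whose members act once PGCs have reached the gonad, 7 of 11 were tested. DMRT1 was the single DEG at 96 h, when 2.63% of all genes rose. DMRT1, a DM-domain factor of germ cells and gonads, was listed at 0 in both cjESC libraries, at 0.81 and 1.48 TPM at 48 h, and at 16.4 and 8.95 TPM at 96 h. DDX4, the RNA helicase of later germ cells, stayed under 1 TPM in every library of the course.

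The same genes were also measured with BMP4, and none of the 15 PGC genes was a DEG between the conditions at any time, in a comparison where 0% to 0.616% of all genes passed in either direction. SOX17 stood at 164 and 168 TPM at 12 h, 180.2 and 189 at 24 h, 368 and 322 at 48 h, and 692 and 636 TPM at 96 h with BMP4. The log2 differences without BMP4 relative to with BMP4 were 0.03, −0.67, −0.86 and −0.82 from 12 to 96 h. NANOS3 stood at 43.9 and 34.4 TPM at 12 h, 75.6 and 68.7 at 24 h, 106 and 94.6 at 48 h, and 276 and 234 TPM at 96 h with BMP4. Its difference was −1.43, −1.10, −1.27 and −0.68. For both genes the libraries without BMP4 were below those with BMP4 at 24, 48 and 96 h without overlap, but by less than the 4-fold threshold. PRDM1 was above the BMP4 libraries at 12 and 24 h, at 91.7 and 93.6 TPM against 72.8 and 62.7 TPM at 24 h (0.45), and below them at 48 h (−0.21). The medians of the 15 genes were 0.03, −0.18, −0.67 and −0.25, largest in size at 48 h, where DND1 differed by −1.66, TCL1B by −1.73 and TFAP2C by −0.91.

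**Figure D2:**
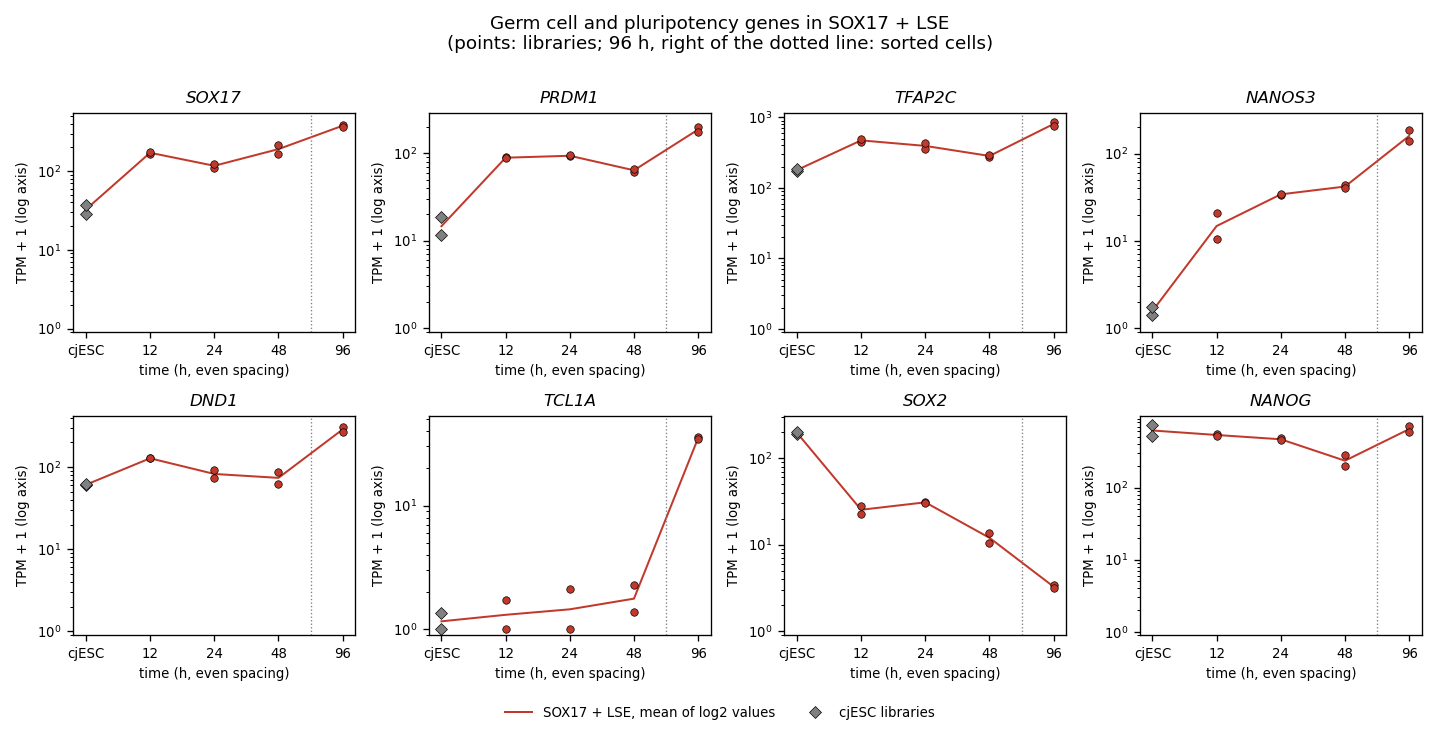
Level of PGC and pluripotency genes (y axis, TPM on a log axis of TPM + 1) at each time (x axis, h, evenly spaced) in the libraries of cjESCs and SOX17 + LSE, with a point for each library and a line through the means of the log2 values. NANOS3 climbs from 0.42 and 0.74 TPM to 137 and 183 TPM without BMP4, while SOX2 drops from 191 and 200.4 TPM to 2.42 and 2.11 TPM.

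Most pluripotency genes did not pass the test, and SOX2 and DNMT3B were those that fell at every time. Of 18 listed genes, 17 were in the table and tested. SOX2 and DNMT3B fell at 12, 24 and 48 h, and at 96 h 5 genes fell, SOX2, DNMT3B, TDGF1 and KLF17 among them. None rose, and the list medians were −0.38, −0.42, −0.62 and −0.67. The shares of all genes that fell were 0.339%, 0.384%, 0.643% and 1.95% at 12, 24, 48 and 96 h, and those that rose 0.429% to 2.63%. SOX2 (gene 100407856), the pluripotency factor that PGCs of primates lack, stood at 191 and 200.4 TPM in cjESCs, 27 and 21.9 TPM at 12 h, 30.3 and 29.4 at 24 h, 9.51 and 12.7 at 48 h, and 2.42 and 2.11 TPM at 96 h. No library of the course overlapped the cjESCs. The log2 change was −2.96 ± 0.28 with an adjusted p of 1.27e-09 at 12 h and −5.92 ± 0.28 with an adjusted p of 1.08e-18 at 96 h. DNMT3B (gene 100412936), a de novo DNA methyltransferase, had 59 and 61.7 TPM in cjESCs, 13.2 and 8.14 TPM at 12 h, 13 and 7.61 at 24 h, 10.8 and 10.4 at 48 h, and 3.59 and 4.44 TPM at 96 h. Most of its fall was in place by 12 h (−2.43 ± 0.26, adjusted p = 1.6e-08), and it was −3.62 ± 0.26 with an adjusted p of 7.43e-14 at 96 h. The core factors POU5F1 and NANOG were not DEGs at any time.

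POU5F1 (gene 100384946) stood at 3082 and 2868 TPM in cjESCs, 3483 and 3531 TPM at 12 h, 3799.7 and 4298 at 24 h, 2723 and 3370 at 48 h, and 4399 and 4113 TPM at 96 h. NANOG (gene 100399586) stood at 743 and 514 TPM in cjESCs, 551 and 519.7 TPM at 12 h, 479 and 454 at 24 h, 196 and 282 at 48 h, and 709.8 and 587 TPM at 96 h. NANOG was lowest at 48 h (−1.39 against cjESCs) and within the range of the cjESC libraries again in the sorted cells. The 96 h calls of the NODAL coreceptor TDGF1 and of KLF17, a factor of the naive state, were lost in leaving out single libraries. For TDGF1 at 96 h against cjESCs, the log2 change was −1.97 (adjusted p = 2.93e-09) without SOX17 + LSE 96 h replicate 2 and −1.90 (adjusted p = 4.96e-09) without cjESC replicate 1. This TDGF1 call was also lost with quantile normalization. For KLF17 at 96 h against cjESCs, the log2 change was −1.95 (adjusted p = 0.00445) without SOX17 + LSE 96 h replicate 2. Of the 7 DNA methylation enzymes tested, DNMT3B fell at all times, where 0.339% (12 h) to 1.95% (96 h) of all genes fell. UHRF1, which brings DNMT1 to replicating DNA, fell at 96 h from 118 and 127 to 20.1 and 25 TPM (−2.40 ± 0.15, adjusted p = 2.47e-15). DNMT1 was at 30.1 and 36.8 TPM in cjESCs and 50 and 60.2 TPM at 96 h (0.71).

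SOX2 was higher without BMP4 than with it at 24 h. The SOX17 + BLSE libraries had 5.57 and 7.21 TPM of SOX2 at 24 h against 30.3 and 29.4 TPM without BMP4, a log2 difference of 2.07 ± 0.28 with an adjusted p of 4.83e-06. At 12, 48 and 96 h the differences were 0.88, 1.59 and 0.67, and the 24 h call was lost in leaving out a BMP4 library. For SOX2 at 24 h against SOX17 + BLSE, the log2 change was 1.91 (adjusted p = 0.000988) without SOX17 + BLSE 24 h replicate 1. This SOX2 call was also lost with log2(TPM + 0.1). At 48 h PRDM14, a pluripotency and germ cell regulator, was higher without BMP4, at 40.3 and 50.5 TPM against 9.92 and 8.26 TPM (2.20 ± 0.24, adjusted p = 1.69e-08). KLF17 passed there too, at 22.7 and 22.8 against 3.96 and 5.83 TPM, but not in leaving out any of 3 libraries. For KLF17 at 48 h against SOX17 + BLSE, the log2 change was 2.03 (adjusted p = 0.014) without SOX17 + LSE 48 h replicate 1, 2.02 (adjusted p = 0.0144) without SOX17 + LSE 48 h replicate 2 and 1.80 (adjusted p = 0.0343) without SOX17 + BLSE 48 h replicate 1.

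A few NODAL-axis and primitive streak genes fell by 12 h, and most of them fell in the sorted cells at 96 h. Of 16 listed genes, 12 were in the table and tested. At 12 h EOMES, MIXL1 and FGF8 fell. CER1 and FGF8 fell at 24 and 48 h, and EVX1 rose at 48 h. At 96 h 8 fell: NODAL, TDGF1, EOMES, MIXL1, FGF8, FGF17, LHX1 and CER1. Beside these counts, 0.339%, 0.384%, 0.643% and 1.95% of all genes fell at 12, 24, 48 and 96 h, and 0.813% rose at 48 h. The list medians were −1.13, −0.87, −0.37 and −2.27 on the log2 scale.

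CER1 (gene 100410143), a secreted antagonist of NODAL, BMP and WNT made by anterior endoderm, was high at the start and had 297 and 515 TPM in cjESCs, 55 and 28.9 TPM at 12 h, 8.63 and 5.74 at 24 h, 25 and 21 at 48 h, and 0.36 and 0 TPM at 96 h. The 2 cjESC libraries were apart from each other, and both were above every library of the course. The change was −5.60 ± 0.93 with an adjusted p of 3.16e-05 at 24 h and −8.39 ± 0.93 with an adjusted p of 2.73e-09 at 96 h. At 12 h its size was past the 4-fold threshold but its adjusted p was not below 0.01 (−3.26 ± 0.93, adjusted p = 0.0138). At 48 h the call (−4.03 ± 0.93, adjusted p = 0.00143) was lost in leaving out any of 3 libraries. For CER1 at 48 h against cjESCs, the log2 change was −4.16 (adjusted p = 0.0125) without SOX17 + LSE 48 h replicate 1, −3.91 (adjusted p = 0.0182) without SOX17 + LSE 48 h replicate 2 and −3.64 (adjusted p = 0.0241) without cjESC replicate 2. From 48 to 96 h CER1 fell again, with a log2 change of −4.36 ± 0.93 with an adjusted p of 0.000453.

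MIXL1 (gene 100405816), a homeobox factor of the streak, had 353 and 326 TPM in cjESCs, 71.2 and 38.4 TPM at 12 h, 148 and 55.7 at 24 h, 219 and 179 at 48 h, and 8.18 and 5.96 TPM at 96 h. The 12 h libraries were far below cjESCs, the 24 h libraries lay apart from each other, and the 48 h libraries were above both but still under cjESCs. EOMES (gene 100401577), a T-box factor needed for endoderm, was near its starting level again at 48 h, with 30.6 and 30.0 TPM in cjESCs, 7.53 and 4.93 TPM at 12 h, 17.3 and 4.73 at 24 h, 39.5 and 29.1 at 48 h, and 5.16 and 4.45 TPM at 96 h. Both were called at 12 h, and neither call held in leaving out any of the 4 libraries. For MIXL1 at 12 h against cjESCs, the log2 change was −3.11 (adjusted p = 0.0109) without SOX17 + LSE 12 h replicate 1, −2.24 (adjusted p = 0.105) without SOX17 + LSE 12 h replicate 2, −2.62 (adjusted p = 0.0453) without cjESC replicate 1 and −2.73 (adjusted p = 0.0265) without cjESC replicate 2. This MIXL1 call was also lost with log2(TPM + 0.1), without the filter on low values and without the intensity trend. For EOMES at 12 h against cjESCs, the log2 change was −2.40 (adjusted p = 0.0155) without SOX17 + LSE 12 h replicate 1, −1.88 (adjusted p = 0.0907) without SOX17 + LSE 12 h replicate 2, −2.12 (adjusted p = 0.0442) without cjESC replicate 1 and −2.15 (adjusted p = 0.0307) without cjESC replicate 2. This EOMES call was also lost with log2(TPM + 0.1), without the filter on low values and in the fit of the courses compared alone. At 96 h both had fallen, MIXL1 with a log2 change of −5.41 ± 0.67 with an adjusted p of 2.9e-08 and EOMES with one of −2.43 ± 0.54 with an adjusted p of 0.000364, with no overlap with cjESCs or with 48 h.

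NODAL (gene 100406643), the ligand itself, had 390.4 and 438 TPM in cjESCs, 161 and 114 TPM at 12 h, 226 and 139 at 24 h, 180.4 and 197 at 48 h, and 27.1 and 18.9 TPM at 96 h. It passed at 96 h alone (−4.13 ± 0.40, adjusted p = 1.28e-10), with a step of −3.01 ± 0.40 with an adjusted p of 4.18e-07 from 48 h. TBXT (gene 100384957), the T-box factor brachyury, was not a DEG at any time, with 435 and 404 TPM in cjESCs, 570.2 and 659 TPM at 48 h and 362 and 306 TPM at 96 h. EVX1 (gene 100396201), a homeobox factor of the posterior streak, rose to 129 and 104 TPM at 48 h from 24.7 and 25.4 TPM (2.17 ± 0.32, adjusted p = 3.6e-06) and had 47.5 and 47.3 TPM at 96 h (0.90). The summed level of the 4 nascent mesoderm markers in the table, of which TBXT was the highest, ran from 761 to 819 TPM in cjESCs to 351 to 439.55 TPM at 12 h, 829.8 to 868 TPM at 48 h and 317 to 376 TPM at 96 h. The fibroblast growth factor FGF8 was below cjESCs at every time, with 72.1 and 54.2 TPM in cjESCs, 12.3 and 13.2 TPM at 12 h, 17.3 and 7.48 at 24 h, 12.1 and 13.9 at 48 h, and 1.8 and 1.81 TPM at 96 h. Its calls at 12, 24 and 48 h, and those of FGF17 and LHX1, a LIM-homeobox factor, at 96 h, were lost in leaving out single libraries. For FGF8 at 12 h against cjESCs, the log2 change was −2.16 (adjusted p = 0.015) without SOX17 + LSE 12 h replicate 1, −2.25 (adjusted p = 0.0176) without SOX17 + LSE 12 h replicate 2 and −2.004 (adjusted p = 0.031) without cjESC replicate 1. This FGF8 call was also lost with log2(TPM + 0.1). For FGF8 at 24 h against cjESCs, the log2 change was −1.79 (adjusted p = 0.0401) without SOX17 + LSE 24 h replicate 2 and −2.15 (adjusted p = 0.0143) without cjESC replicate 1. This FGF8 call was also lost with log2(TPM + 0.1). For FGF8 at 48 h against cjESCs, the log2 change was −2.09 (adjusted p = 0.0157) without SOX17 + LSE 48 h replicate 1 and −1.98 (adjusted p = 0.0218) without cjESC replicate 1. This FGF8 call was also lost with log2(TPM + 0.1). For FGF17 at 96 h against cjESCs, the log2 change was −1.81 (adjusted p = 0.0405) without SOX17 + LSE 96 h replicate 2 and −2.22 (adjusted p = 0.0155) without cjESC replicate 1. This FGF17 call was also lost with log2(TPM + 0.1). For LHX1 at 96 h against cjESCs, the log2 change was −2.12 (adjusted p = 0.0223) without SOX17 + LSE 96 h replicate 1, −2.23 (adjusted p = 0.0152) without SOX17 + LSE 96 h replicate 2 and −1.83 (adjusted p = 0.0436) without cjESC replicate 2. This LHX1 call was also lost with quantile normalization.

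At 48 h these genes differed most between the conditions. Of the 12 genes, 7 were higher without BMP4, where 0.402% of all genes were higher and 0.616% lower, and none differed at 12, 24 or 96 h. The median difference at 48 h was 2.43. MIXL1 had 219 and 179 TPM without BMP4 and 4.36 and 10.04 TPM with it (4.69 ± 0.67, adjusted p = 2.9e-06). NODAL had 180.4 and 197 TPM against 11.7 and 19.6 TPM (3.55 ± 0.40, adjusted p = 3.56e-08). CER1 had 25 and 21 TPM against 0.35 and 0 TPM (4.36 ± 0.93, adjusted p = 0.000931). In all 3 the groups were far apart, and the MIXL1 and NODAL calls held in leaving out each library in turn. The calls of CER1, of EOMES (2.75), of the organizer factor GSC (2.62), of FGF8 (2.24) and of FGF17 (3.02) did not. For CER1 at 48 h against SOX17 + BLSE, the log2 change was 4.24 (adjusted p = 0.0161) without SOX17 + LSE 48 h replicate 1, 4.49 (adjusted p = 0.0103) without SOX17 + LSE 48 h replicate 2 and 4.15 (adjusted p = 0.0179) without SOX17 + BLSE 48 h replicate 2. For EOMES at 48 h against SOX17 + BLSE, the log2 change was 2.54 (adjusted p = 0.0128) without SOX17 + LSE 48 h replicate 1 and 2.45 (adjusted p = 0.018) without SOX17 + BLSE 48 h replicate 1. For GSC at 48 h against SOX17 + BLSE, the log2 change was 2.44 (adjusted p = 0.0101) without SOX17 + LSE 48 h replicate 1 and 2.34 (adjusted p = 0.0148) without SOX17 + BLSE 48 h replicate 1. For FGF8 at 48 h against SOX17 + BLSE, the log2 change was 2.33 (adjusted p = 0.0103) without SOX17 + LSE 48 h replicate 1, 2.14 (adjusted p = 0.0197) without SOX17 + LSE 48 h replicate 2 and 1.83 (adjusted p = 0.0503) without SOX17 + BLSE 48 h replicate 1. This FGF8 call was also lost with log2(TPM + 0.1). For FGF17 at 48 h against SOX17 + BLSE, the log2 change was 2.71 (adjusted p = 0.0127) without SOX17 + LSE 48 h replicate 1 and 2.45 (adjusted p = 0.0246) without SOX17 + BLSE 48 h replicate 1. This FGF17 call was also lost with log2(TPM + 0.1).

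**Figure D3:**
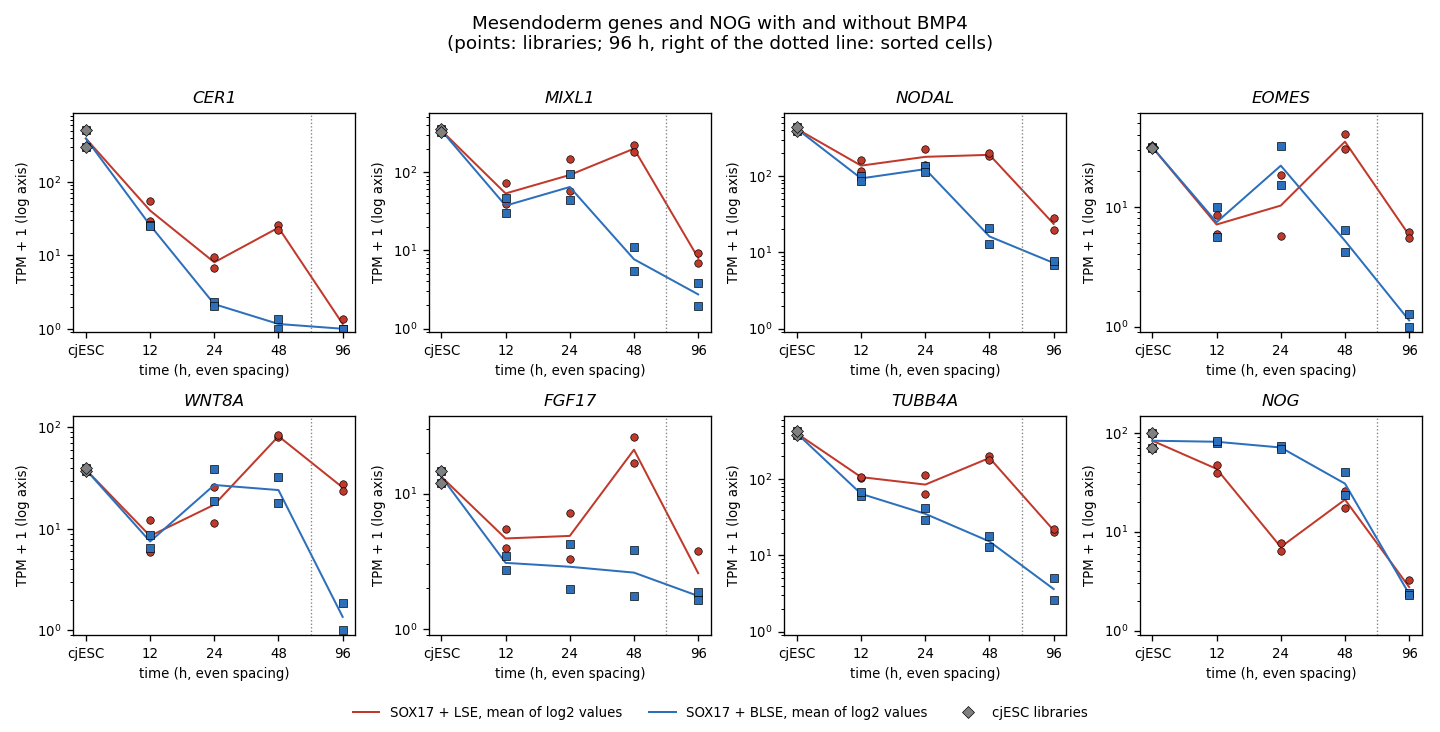
Level of NODAL-axis and primitive streak genes and of WNT8A, TUBB4A and NOG (y axis, TPM on a log axis of TPM + 1) at each time (x axis, h, evenly spaced), a point for each library of cjESCs, SOX17 + LSE and SOX17 + BLSE. At 48 h MIXL1 stands at 219 and 179 TPM without BMP4 and at 4.36 and 10.04 TPM with it.

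Among WNT genes a secreted enhancer of the pathway rose at every time, and most ligands and feedback genes did not pass. Of 28 listed genes, 24 were in the table and 22 tested. RSPO3 rose at all times, LGR5 at 24 and 48 h and NKD1 at 96 h. WNT8A fell at 12 h, DKK4 at 48 h, and WNT3, DKK4 and SFRP1 at 96 h. From 12 to 96 h the shares of all genes went from 0.429% to 2.63% for rises and from 0.339% to 1.95% for falls. RSPO3 (gene 100399183), an R-spondin that amplifies WNT by keeping its receptors at the surface, stood at 5.28 and 2.33 TPM in cjESCs, 64.7 and 91.3 TPM at 12 h, 181 and 205 at 24 h, 324 and 290 at 48 h, and 159 and 269.8 TPM at 96 h. It led the rising genes with a symbol at 12, 24 and 48 h, by 4.09 ± 0.37 with an adjusted p of 4.51e-10, 5.41 ± 0.37 with an adjusted p of 3.26e-13 and 6.07 ± 0.37 with an adjusted p of 8.86e-15, and was 5.51 ± 0.37 with an adjusted p of 1.77e-14 at 96 h. LGR5, a receptor for R-spondins and an endoderm gene, had 0.79 and 0.87 TPM in cjESCs, 6.19 and 7.19 TPM at 24 h, 13.3 and 9.53 TPM at 48 h (2.75 ± 0.27, adjusted p = 1.16e-09) and 0.55 and 1.2 TPM at 96 h, and its 24 h call (2.07) was lost in leaving out a library. For LGR5 at 24 h against cjESCs, the log2 change was 1.97 (adjusted p = 0.00011) without SOX17 + LSE 24 h replicate 2. This LGR5 call was also lost with median-ratio scaling and with quantile normalization.

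WNT8A (gene 100402422), a ligand of the streak, had 36.2 and 38.5 TPM in cjESCs, 11.2 and 4.93 TPM at 12 h, 25.1 and 10.5 at 24 h, 79.2 and 82.8 at 48 h, and 26.4 and 22.9 TPM at 96 h. The 12 h libraries were low, the 48 h libraries were the highest, and those of 96 h were again below cjESCs. It fell at 12 h (−2.17 ± 0.41, adjusted p = 0.000223) and rose from 24 to 48 h (2.24 ± 0.41, adjusted p = 0.000757). Both calls were lost in leaving out single libraries. For WNT8A at 12 h against cjESCs, the log2 change was −1.65 (adjusted p = 0.031) without SOX17 + LSE 12 h replicate 2. This WNT8A call was also lost with log2(TPM + 0.1) and in the fit of the courses compared alone. For WNT8A at 48 h against the time before, the log2 change was 2.27 (adjusted p = 0.0202) without SOX17 + LSE 48 h replicate 1, 2.21 (adjusted p = 0.0148) without SOX17 + LSE 48 h replicate 2 and 1.65 (adjusted p = 0.12) without SOX17 + LSE 24 h replicate 2. This WNT8A call was also lost with log2(TPM + 0.1) and in the fit of the courses compared alone. With BMP4 it stood at 7.77 and 5.45 TPM at 12 h, 38 and 17.8 at 24 h, 17.1 and 31.2 at 48 h, and 0 and 0.85 TPM at 96 h. At 96 h it was higher without BMP4, by 4.24 ± 0.41 with an adjusted p of 1.61e-09, and that call held in leaving out each library. RSPO3 was higher without BMP4 at 96 h as well, at 159 and 269.8 against 24.3 and 52.7 TPM (2.50 ± 0.37, adjusted p = 8.93e-06), but not in leaving out the first BMP4 library. For RSPO3 at 96 h against SOX17 + BLSE, the log2 change was 1.95 (adjusted p = 0.003) without SOX17 + BLSE 96 h replicate 1.

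WNT3 (gene 100398579), the ligand that starts the streak, went from 49.9 and 52.6 TPM to 3.37 and 5.77 TPM (−3.27 ± 0.30, adjusted p = 2.27e-11). DKK4, an inhibitor of WNT coreceptors, went from 44.9 and 62.9 TPM to 8.15 and 4.04 TPM at 48 h and 0.27 and 0.27 TPM at 96 h (−5.42 ± 0.60, adjusted p = 2.83e-09). NKD1, a cytoplasmic WNT antagonist, went from 3.72 and 2.28 to 20.9 and 18.3 TPM (2.38 ± 0.25, adjusted p = 5.32e-10). The feedback targets AXIN2 (−0.19 at 48 h, −1.27 at 96 h), LEF1 and RNF43 did not pass at any time. At 48 h SP5, a direct WNT target, was higher without BMP4, at 60.3 and 74.5 against 10.3 and 10.7 TPM (2.57 ± 0.48, adjusted p = 0.000177), and the WNT inhibitor DKK1 was lower, at 6.12 and 5.36 against 32.2 and 31 TPM (−2.28 ± 0.46, adjusted p = 0.000434). Calls lost in leaving out single libraries were those of DKK4 at 48 h, of DKK1, and of SFRP1, a secreted WNT antagonist, at 96 h. For DKK4 at 48 h against cjESCs, the log2 change was −2.57 (adjusted p = 0.0147) without SOX17 + LSE 48 h replicate 2. This DKK4 call was also lost with log2(TPM + 0.1). For DKK1 at 48 h against SOX17 + BLSE, the log2 change was −2.19 (adjusted p = 0.0101) without SOX17 + LSE 48 h replicate 2. This DKK1 call was also lost with log2(TPM + 0.1). For SFRP1 at 96 h against cjESCs, the log2 change was −1.92 (adjusted p = 2.53e-05) without SOX17 + LSE 96 h replicate 1 and −1.77 (adjusted p = 5.42e-05) without cjESC replicate 1.

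Definitive endoderm genes changed in both directions, and at 96 h FOXA2, APOA1 and TTR rose while CER1 and SHISA2 fell. Of 18 listed genes, 13 were in the table and tested, and GATA4, CXCR4, FRZB and APOB were among those not analysed here. APOA1 rose at every time, FOXA2 from 24 h, LGR5 at 24 and 48 h, HNF4A at 48 h and TTR at 96 h, while CER1 fell at 24, 48 and 96 h and SHISA2 at 96 h. Among all genes, 0.429%, 0.518%, 0.813% and 2.63% rose and 0.339%, 0.384%, 0.643% and 1.95% fell at 12, 24, 48 and 96 h. The medians were 0.02, 0.00, 0.04 and 0.22 over the 13, which include genes of opposite direction and 2 listed at 0 in every library of the course. FOXA2 (gene 118142764), a forkhead pioneer factor of endoderm, had 1.23 and 0 TPM in cjESCs, 0.75 and 1.4 TPM at 12 h, 7.82 and 7.06 at 24 h, 43.2 and 44.4 at 48 h, and 37.4 and 59.4 TPM at 96 h. It stayed near its starting level at 12 h, and every library from 24 h on was above it. The change was 4.91 ± 0.42 with an adjusted p of 5.13e-11 at 48 h and 5.01 ± 0.42 with an adjusted p of 4.2e-12 at 96 h. The 24 h call (2.50) was lost in leaving out 1 library, and those of both steps up to 48 h in leaving out any of 4 libraries and in other settings. For FOXA2 at 24 h against cjESCs, the log2 change was 1.92 (adjusted p = 0.00672) without cjESC replicate 2. For FOXA2 at 24 h against the time before, the log2 change was 1.98 (adjusted p = 0.1) without SOX17 + LSE 24 h replicate 1, 2.11 (adjusted p = 0.0467) without SOX17 + LSE 24 h replicate 2, 1.81 (adjusted p = 0.0904) without SOX17 + LSE 12 h replicate 1 and 2.27 (adjusted p = 0.0368) without SOX17 + LSE 12 h replicate 2. This FOXA2 call was also lost with log2(TPM + 0.1), with median-ratio scaling, with quantile normalization, without the filter on low values, without the intensity trend and in the fit of the courses compared alone. For FOXA2 at 48 h against the time before, the log2 change was 2.43 (adjusted p = 0.0167) without SOX17 + LSE 48 h replicate 1, 2.39 (adjusted p = 0.0106) without SOX17 + LSE 48 h replicate 2, 2.48 (adjusted p = 0.0101) without SOX17 + LSE 24 h replicate 1 and 2.35 (adjusted p = 0.0201) without SOX17 + LSE 24 h replicate 2. This FOXA2 call was also lost with log2(TPM + 0.1) and in the fit of the courses compared alone.

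APOA1 (gene 100386212), an apolipoprotein of liver and yolk sac, had 19 and 24 TPM in cjESCs, 77.7 and 124 TPM at 12 h, 107 and 183 at 24 h, 238 and 216 at 48 h, and 204 and 405 TPM at 96 h. It rose by 3.69 ± 0.42 with an adjusted p of 4.72e-09 at 96 h. At 12 h its call was lost in leaving out either of 2 libraries. For APOA1 at 12 h against cjESCs, the log2 change was 1.82 (adjusted p = 0.0262) without SOX17 + LSE 12 h replicate 2 and 1.99 (adjusted p = 0.0129) without cjESC replicate 1. This APOA1 call was also lost in the fit of the courses compared alone. TTR, the thyroid hormone carrier transthyretin and a marker of visceral and hepatic endoderm, was listed at 0 in every library of cjESCs and of 12, 24 and 48 h, and at 15.6 and 16.8 TPM at 96 h. AFP and APOA2, carriers of the same tissues, were listed at 0 in all 10 libraries. HNF4A, a nuclear receptor of endoderm, went from 3.94 and 6.56 TPM to 35.4 and 31.2 TPM at 48 h (2.49 ± 0.34, adjusted p = 9.76e-07) and had 13.1 and 28.6 TPM at 96 h (1.74). GATA6 (gene 100398286), a zinc-finger factor of endoderm and mesoderm, had 308 and 220.3 TPM at 48 h and fell from there to 37.6 and 55.5 TPM at 96 h (−2.49 ± 0.33, adjusted p = 3.82e-07). The 5 definitive endoderm markers in the table summed to between 432 and 682 TPM in cjESCs, with sums of 294 to 386 TPM at 48 h and 98.1 to 134 TPM at 96 h. CER1 made up most of the cjESC sum. Without CER1 the sums of the other 4 ran from 135 to 167 TPM in cjESCs, with 273 to 361 TPM at 48 h and 97.7 to 134 TPM at 96 h.

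GC, SELENOP and HABP2 were 3 of the 10 DEGs with a gene symbol that rose most at 96 h. GC (gene 100405216), the vitamin D-binding protein, had 0.24 and 0.63 TPM in cjESCs, 0.22 and 2.62 TPM at 12 h, 1.77 and 1.76 at 24 h, 26 and 23.9 at 48 h, and 178 and 383 TPM at 96 h. This was the largest rise at 96 h of any DEG with a gene symbol (7.53 ± 0.47, adjusted p = 1.7e-15). SELENOP (gene 100397952), a selenium carrier, had 2.4 and 0.96 TPM in cjESCs, 5.77 and 8.01 TPM at 12 h, 19.6 and 27.9 at 24 h, 30.5 and 38.7 at 48 h, and 136 and 285 TPM at 96 h, a change of 6.26 ± 0.40 with an adjusted p of 3.7e-15 at the last. HABP2 (gene 100407842), a plasma protease, had 10.7 and 8.21 TPM at 48 h and 50.4 and 71.2 TPM at 96 h. Its change from cjESCs to 96 h was 5.84 ± 0.31 with an adjusted p of 1.39e-17. In each of the 3, both 96 h libraries were above both 48 h libraries. The 2 sorted libraries at 96 h were apart from each other for several of these genes. Replicate 2 had the higher level for FOXA2, APOA1, HNF4A, GC, SELENOP and RSPO3, with GC at 178 and 383 TPM and APOA1 at 204 and 405 TPM in replicates 1 and 2, whereas TTR and TFAP2C were close (15.6 and 16.8 TPM and 859 and 756 TPM). Over the 13 endoderm genes tested, 8 were higher and 3 lower in replicate 2, with a median log2 difference of 0.0957, and over the 15 PGC genes 5 were higher and 10 lower, with a median of −0.125, beside −0.0428 over all genes. Whether endoderm and PGC transcripts came from the same cells cannot be told apart in bulk libraries.

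**Figure D4:**
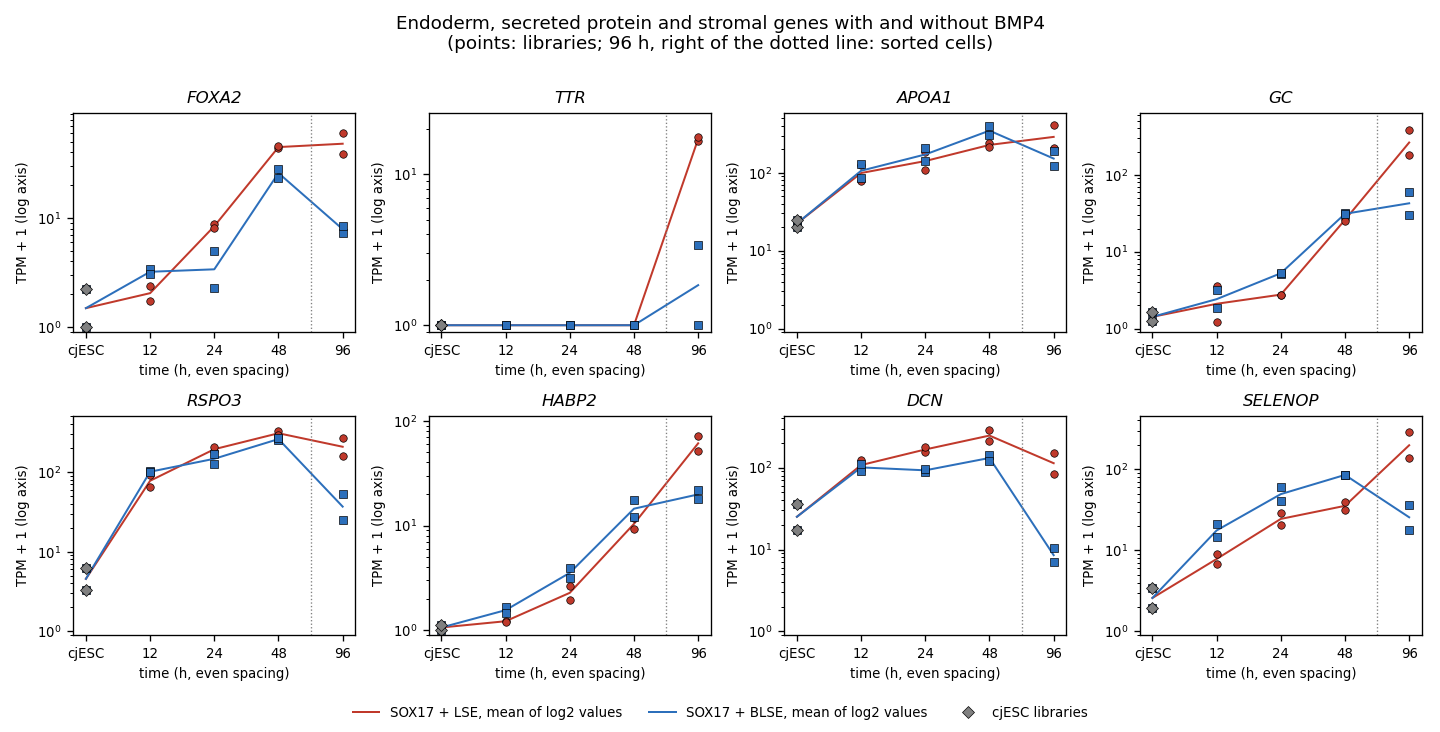
Level of endoderm genes, secreted protein genes, RSPO3 and DCN (y axis, TPM on a log axis of TPM + 1) at each time (x axis, h, evenly spaced), a point for each library of cjESCs, SOX17 + LSE and SOX17 + BLSE. FOXA2 reaches 37.4 and 59.4 TPM at 96 h without BMP4 and 6.36 and 7.51 TPM with it.

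At 96 h some of these genes were higher without BMP4 than with it, in a comparison where 49 genes were higher and 37 lower (0.438% and 0.33% of those tested). FOXA2 had 37.4 and 59.4 TPM against 6.36 and 7.51 TPM with BMP4 (2.60 ± 0.42, adjusted p = 3.28e-05). GC had 178 and 383 against 29.1 and 59.2 TPM (2.62 ± 0.47, adjusted p = 0.000113), and SELENOP had 136 and 285 against 17 and 35.2 TPM (2.95 ± 0.40, adjusted p = 1.58e-06). The groups did not overlap in any of the 3. The FOXA2 call was lost with a pseudocount of 0.1, and at 48 h the conditions had shown no such difference in FOXA2 (0.79) or GC (−0.26). TTR had 0 and 2.4 TPM with BMP4, a difference of 3.22 ± 0.49 with an adjusted p of 1.3e-05. SPINK1, a trypsin inhibitor of gut endoderm, and DDC, aromatic amino acid decarboxylase, were at 8.05 and 16.2 TPM and 9.3 and 7.72 TPM without BMP4 and listed at 0 in both libraries with it. DCN (gene 100405391), the proteoglycan decorin, had 83.1 and 152 against 6.01 and 9.37 TPM (3.73 ± 0.44, adjusted p = 1.32e-07). Decorin is also a fibroblast marker, and the 7 fibroblast markers summed to 134 to 190.3 TPM without BMP4 and 39.3 to 44.9 TPM with it, with COL3A1, LUM and POSTN under 1 TPM in both; their part in the result was not tested.

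Few BMP targets rose in the first 24 h without BMP4, and more of them had risen by 96 h. Of 25 listed genes, 23 were in the table and tested. GATA2 rose at 12 h, GATA2 and TBX3 at 24 h, and MSX2, GATA2 and TBX3 at 48 h. At 96 h 8 rose: BAMBI, ID4, MSX2, DLX3, GATA2, TFAP2A, TBX3 and ISL1. The BAMBI call there fell under 4-fold with median-ratio scaling (1.90) and that of TFAP2A with either scaling. The antagonist NOG fell at 24 and 96 h. The share of all genes that rose also grew over the course, from 0.429%, 0.518% and 0.813% at 12, 24 and 48 h to 2.63% at 96 h. The list medians were 0.09, 0.31, 0.81 and 1.46.

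MSX2 (gene 100387689), a homeobox target of BMP signals, had 21.6 and 24.5 TPM in cjESCs, 26 and 23.1 TPM at 12 h, 40.9 and 22.5 at 24 h, 122 and 107 at 48 h, and 196 and 195 TPM at 96 h. The libraries of 12 and 24 h overlapped those of cjESCs, and those of 48 and 96 h stood clear of them. It rose by 2.26 ± 0.22 with an adjusted p of 1.19e-09 at 48 h and 3.03 ± 0.22 with an adjusted p of 1.73e-13 at 96 h. ID4 (gene 103792242), an inhibitor of bHLH factors, had 4.53 and 4.29 TPM in cjESCs, 4.01 and 4.34 TPM at 12 h, 6.81 and 4.75 at 24 h, 19.5 and 16.4 at 48 h, and 39.1 and 43.2 TPM at 96 h. It passed at 96 h (2.96 ± 0.22, adjusted p = 1.23e-13). ID1 and ID3, of the same family, did not pass at any time against cjESCs. Their levels were low at 12 h and highest at 96 h, at 147 and 139 TPM at 12 h and 662 and 832 TPM at 96 h for ID1 and 85 and 90.6 and 472 and 554 TPM for ID3. GATA2 (gene 100411598), a zinc-finger factor of amnion and trophoblast as well as of PGC precursors, had 7.84 and 6.69 TPM in cjESCs, 28.8 and 36.1 TPM at 12 h, 65.6 and 89 at 24 h, 83.4 and 90.8 at 48 h, and 82.1 and 141 TPM at 96 h. It rose at each time and was 3.23 ± 0.33 with an adjusted p of 4.27e-09 at 24 h and 3.72 ± 0.33 with an adjusted p of 1.55e-11 at 96 h. The 12 h call was lost in leaving out single libraries. For GATA2 at 12 h against cjESCs, the log2 change was 1.85 (adjusted p = 0.00339) without SOX17 + LSE 12 h replicate 2 and 1.91 (adjusted p = 0.00166) without cjESC replicate 2.

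TBX3 (gene 100397791), a T-box repressor, had 3.78 and 6.01 TPM in cjESCs, 16.4 and 16.3 TPM at 12 h, 29 and 37.1 at 24 h, 125 and 101 at 48 h, and 54.8 and 109 TPM at 96 h, with a rise of 4.29 ± 0.29 with an adjusted p of 7.56e-14 at 48 h. TFAP2A, a factor of the amnion and its PGC precursors, remained at 3.71 and 5 TPM at 48 h and passed at 96 h with 12.3 and 13.7 TPM from 2.69 and 1.85 TPM (2.11 ± 0.28, adjusted p = 1.05e-07), though not in leaving out a cjESC library or with either scaling. For TFAP2A at 96 h against cjESCs, the log2 change was 1.92 (adjusted p = 2.59e-05) without cjESC replicate 2. This TFAP2A call was also lost with median-ratio scaling and with quantile normalization. The amnion marker set of 8 genes summed to 291 to 479 TPM in cjESCs, between 445 and 584 TPM at 48 h, and 149 to 252 TPM at 96 h, with TFAP2B and GABRP under 1 TPM throughout the course. DLX3, a homeobox gene of surface ectoderm and placenta, was the 1 gene of the BMP list that rose from 48 to 96 h, from 2.87 and 2.76 to 39.2 and 48.2 TPM (3.54 ± 0.40, adjusted p = 1.77e-08). NOG (gene 100395820), which sequesters BMPs, had 69 and 97.7 TPM in cjESCs, 46.3 and 38.3 TPM at 12 h, 6.7 and 5.35 at 24 h, 24.7 and 16.3 at 48 h, and 1.34 and 2.24 TPM at 96 h. The log2 change was −3.57 ± 0.36 with an adjusted p of 3.28e-09 at 24 h and −4.92 ± 0.36 with an adjusted p of 1.37e-13 at 96 h, and the libraries of 48 h lay above those of both times. The gene for BMP4 itself was expressed throughout, at 119 and 205 TPM in cjESCs and 191 and 186 TPM at 48 h, and was not a DEG at any time.

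With BMP4 in the medium, several of the same targets were higher by 12 h. Without it, 6 of the 23 were lower at 12 h (ID1, ID3, ID4, MSX2, DLX3 and TBX3), when no gene was higher and 10 genes were lower (0% and 0.0893% of those tested; none was higher past the same fold and level at an unadjusted p under 0.05 in that limma fit either). At 24 h 8 were lower (NOG, BAMBI, ID4, MSX1, MSX2, DLX3, HAND1 and TBX3), of 20 genes lower and 4 higher (0.179% and 0.0357%). At 48 h 7 were lower (MSX1, DLX3, DLX5, GATA3, TFAP2A, TBX2 and ISL1), of 69 genes lower and 45 higher (0.616% and 0.402%). The 24 h calls of DLX3 and HAND1 were lost with log2(TPM + 0.1) (adjusted p = 0.0373 and 0.0146). At 96 h DLX5 was lower and BMP2 higher, of 37 genes lower and 49 higher (0.33% and 0.438%). The median difference of the 23 genes was −1.09, −1.75, −1.38 and −0.19 in order of time.

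MSX2 had 233 and 197 TPM at 12 h, 349.9 and 289.6 at 24 h, 313 and 318 at 48 h, and 301 and 248 TPM at 96 h with BMP4. The difference was −3.08 ± 0.22 with an adjusted p of 6.55e-12 at 12 h and −3.35 ± 0.22 with an adjusted p of 8.17e-13 at 24 h, and −1.46 and −0.48 at 48 and 96 h, where it did not pass. ID4 had 38 and 26.9 TPM at 12 h, 48.2 and 43.2 at 24 h, 49.9 and 46.4 at 48 h, and 35.9 and 47.2 TPM at 96 h with BMP4, and differences of −2.67 ± 0.22 with an adjusted p of 7.87e-11 at 12 h and of less than 0.01 in size at 96 h. ID1 had 818 and 777 TPM at 12 h with BMP4 against 147 and 139 TPM without it (−2.47 ± 0.18, adjusted p = 6.55e-12). For these 3 genes the 2 conditions were apart without overlap at 12 and 24 h and were under 4-fold apart at 96 h. MSX1, the paralog of MSX2, differed for longer, at 6.08 and 4.92 TPM against 95.5 and 70.2 TPM with BMP4 at 48 h (−3.68 ± 0.40, adjusted p = 1.69e-08). NOG had 72.8 and 67.2 TPM at 24 h with BMP4 (−3.34 ± 0.36, adjusted p = 5.45e-08), and TFAP2A had 44.2 and 43.2 TPM at 48 h (−3.07 ± 0.28, adjusted p = 4.83e-10). The calls lost in leaving out single libraries were those of DLX3 at 12 h, TBX3 at 24 h, TBX2 at 48 h, and DLX5 and BMP2 at 96 h. For DLX3 at 12 h against SOX17 + BLSE, the log2 change was −2.45 (adjusted p = 0.0126) without SOX17 + LSE 12 h replicate 1. This DLX3 call was also lost with log2(TPM + 0.1). For TBX3 at 24 h against SOX17 + BLSE, the log2 change was −1.86 (adjusted p = 0.00161) without SOX17 + LSE 24 h replicate 1 and −1.89 (adjusted p = 0.00125) without SOX17 + BLSE 24 h replicate 1. For TBX2 at 48 h against SOX17 + BLSE, the log2 change was −1.87 (adjusted p = 0.000203) without SOX17 + BLSE 48 h replicate 1. For DLX5 at 96 h against SOX17 + BLSE, the log2 change was −1.93 (adjusted p = 0.000929) without SOX17 + BLSE 96 h replicate 2. For BMP2 at 96 h against SOX17 + BLSE, the log2 change was 1.62 (adjusted p = 0.0213) without SOX17 + LSE 96 h replicate 2.

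**Figure D5:**
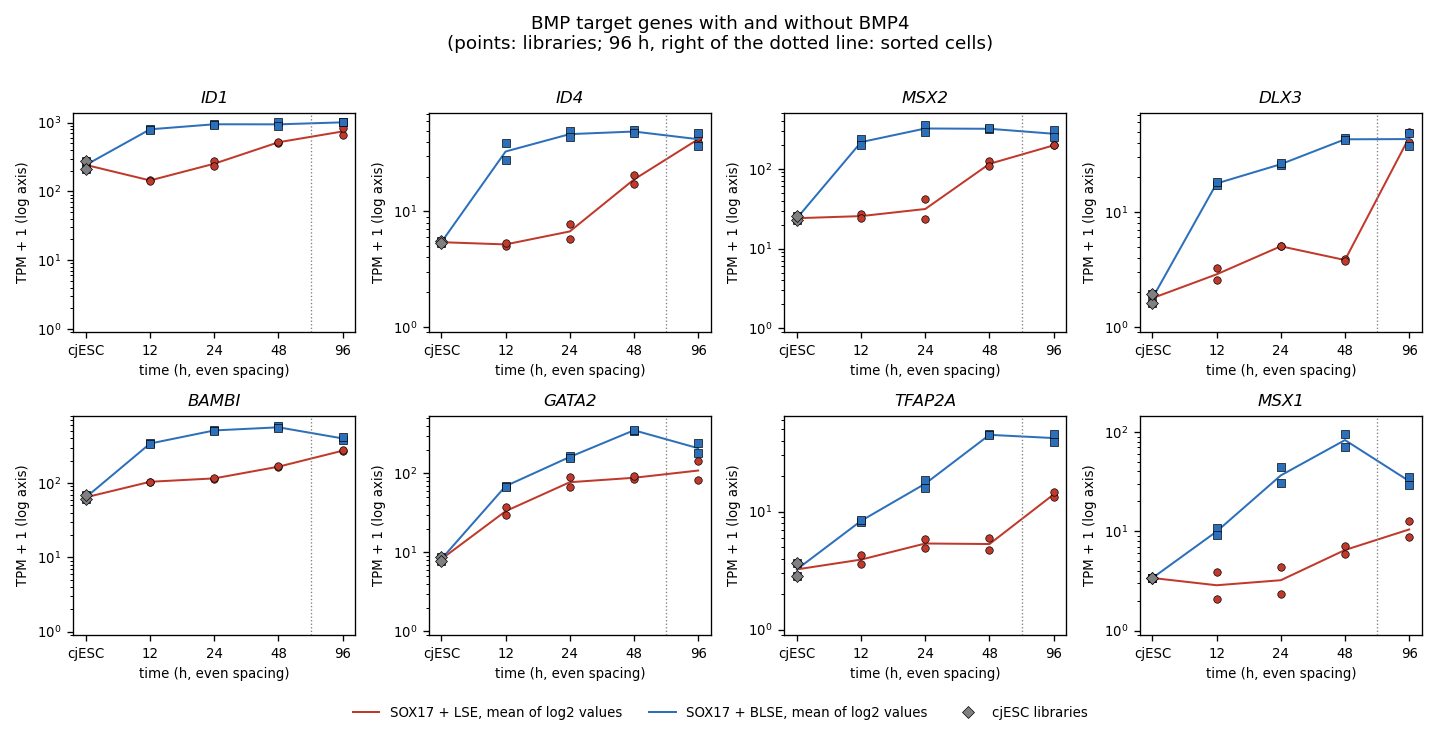
Level of BMP pathway genes and targets (y axis, TPM on a log axis of TPM + 1) at each time (x axis, h, evenly spaced), a point for each library of cjESCs, SOX17 + LSE and SOX17 + BLSE. MSX2 stands at 26 and 23.1 TPM at 12 h without BMP4 against 233 and 197 TPM with it, and at 196 and 195 against 301 and 248 TPM at 96 h.

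The DEGs with the largest differences between the conditions were mostly genes that stayed low without BMP4. At 48 h, when 45 genes were higher and 69 lower, KRT72, a type II keratin, had 0.62 and 0.36 TPM against 206 and 169.6 TPM with BMP4 (−6.98 ± 0.39, adjusted p = 2.73e-15). SLC6A2, the noradrenaline transporter, had 0.71 and 0.83 against 93.7 and 72.5 TPM (−5.56 ± 0.33, adjusted p = 1.21e-14), and DLX5, a homeobox gene of the same family as DLX3, had 2.23 and 1.71 against 72.7 and 55.2 TPM (−4.44 ± 0.31, adjusted p = 8.39e-13). None of these 3 passed against cjESCs at any time without BMP4. SP6, a zinc-finger factor of trophoblast and skin appendages, had 13.7 and 11.6 against 158 and 130.3 TPM at 24 h (−3.41 ± 0.25, adjusted p = 4.27e-12). PRR9, a proline-rich epidermal protein, had 0 and 5.3 against 301 and 531 TPM at 96 h (−7.32 ± 0.52, adjusted p = 2.05e-12), and GAST, the gastrin gene, 0 and 0.89 against 33.6 and 55 TPM (−5.00 ± 0.85, adjusted p = 6.19e-05), where the call was lost with log2(TPM + 0.1) (adjusted p = 0.0246).

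Genes higher without BMP4 at 24 h were HES3, NR5A2, SOX2 and ELAVL3. NR5A2, a nuclear receptor that drives POU5F1, had 39 and 27.5 TPM in cjESCs, 16.7 and 12.4 TPM at 24 h without BMP4 and 2.16 and 1.89 TPM with it (2.35 ± 0.29, adjusted p = 8.18e-07). Without BMP4 it fell from cjESCs at 48 and 96 h (−2.22 and −3.45), so the libraries without BMP4 lay between cjESCs and those with BMP4 at 24 h. TUBB4A, a beta-tubulin of neural cells, lay between them at 48 h, with 375 and 424 TPM in cjESCs, 201 and 179 TPM at 48 h without BMP4 and 11.8 and 17.2 TPM with it (3.64 ± 0.33, adjusted p = 3.74e-10). SAMD3 had 45.1 and 43.4 against 1.51 and 3.48 TPM at 48 h (3.75 ± 0.51, adjusted p = 1.31e-06). Of 11 genes of the neural list tested, ZIC2 was the 1 DEG against cjESCs, falling at 96 h (−3.06), when 1.95% of all genes fell. The calls of the neural genes HES3 and ELAVL3 at 24 h were lost in leaving out single libraries. So were those of ZIC2 at 48 h (2.67) and SOX3 at 96 h (2.17), both from the neural list. The ZIC2 call was lost whichever library was left out, while its log2 change stayed at 2.56 to 2.79. For HES3 at 24 h against SOX17 + BLSE, the log2 change was 2.699 (adjusted p = 0.0139) without SOX17 + LSE 24 h replicate 1, 2.52 (adjusted p = 0.0205) without SOX17 + LSE 24 h replicate 2 and 1.37 (adjusted p = 0.21) without SOX17 + BLSE 24 h replicate 1. This HES3 call was also lost with log2(TPM + 0.1) and in the fit of the courses compared alone. For ELAVL3 at 24 h against SOX17 + BLSE, the log2 change was 1.94 (adjusted p = 0.00185) without SOX17 + LSE 24 h replicate 2 and 1.83 (adjusted p = 0.00397) without SOX17 + BLSE 24 h replicate 1. This ELAVL3 call was also lost with median-ratio scaling and with quantile normalization. For ZIC2 at 48 h against SOX17 + BLSE, the log2 change was 2.62 (adjusted p = 0.0225) without SOX17 + LSE 48 h replicate 1, 2.73 (adjusted p = 0.0169) without SOX17 + LSE 48 h replicate 2, 2.79 (adjusted p = 0.0156) without SOX17 + BLSE 48 h replicate 1 and 2.56 (adjusted p = 0.0252) without SOX17 + BLSE 48 h replicate 2. For SOX3 at 96 h against SOX17 + BLSE, the log2 change was 1.89 (adjusted p = 0.00484) without SOX17 + LSE 96 h replicate 2 and 1.21 (adjusted p = 0.0209) without SOX17 + BLSE 96 h replicate 2.

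Of the mesenchyme and mesoderm list, 3 genes rose at 48 h and 4 fell at 96 h. Of 22 listed genes, 19 were in the table and 16 tested. CDH2, PDGFRA and CDX2 rose at 48 h, CDH2 alone was up at 96 h, and SNAI2, APLNR, KDR and MYC fell at 96 h. Against cjESCs, 0.813% of all genes rose at 48 h, and 2.63% rose and 1.95% fell at 96 h. No member was a DEG between the conditions at any time, where 0% to 0.616% of all genes passed in either direction. CDH2 (gene 100411112), N-cadherin, had 6.12 and 4.48 TPM in cjESCs, 19 and 22.4 TPM at 12 h, 23 and 19.6 at 24 h, 74.3 and 53.9 at 48 h, and 191 and 167 TPM at 96 h, with a rise of 4.84 ± 0.19 with an adjusted p of 1.07e-20 at 96 h. PDGFRA (gene 100412331), a receptor of mesoderm and primitive endoderm, had 13.2 and 23.6 TPM in cjESCs, 131 and 105 TPM at 48 h (2.66 ± 0.40, adjusted p = 3.69e-06) and 37.8 and 62.1 TPM at 96 h. VIM, the intermediate filament of mesenchyme, was highest at 12 h with 1219.8 and 1252 TPM and had 169.7 and 141 TPM at 96 h, without passing at either (1.24 and −1.75). MYC went from 212 and 182 TPM at 48 h to 28.2 and 35.8 TPM at 96 h (−2.59 ± 0.14, adjusted p = 1.01e-15). KDR, the VEGF receptor of mesoderm and endothelium, went from 54 and 46.3 to 3.15 and 4.14 TPM (−3.46 ± 0.38, adjusted p = 7.79e-09). APLNR, the apelin receptor of early mesoderm, passed as a fall at 12 h but not in leaving out cjESC replicate 2, and the 96 h call of KDR was lost in leaving out cjESC replicate 1. For APLNR at 12 h against cjESCs, the log2 change was −1.38 (adjusted p = 0.0119) without cjESC replicate 2. This APLNR call was also lost in the fit of the courses compared alone. For KDR at 96 h against cjESCs, the log2 change was −1.99 (adjusted p = 0.000713) without cjESC replicate 1.

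Signalling lists tied to the factors in the medium changed in few members, where 0.429% to 2.63% of all genes rose and 0.339% to 1.95% fell against cjESCs. Of 17 tested ERK feedback genes, the immediate early gene EGR1 rose at 12 and 24 h, from 35.7 and 19.8 TPM to 162 and 173 TPM at 12 h (2.61 ± 0.38, adjusted p = 6.25e-06), and was 2.85 ± 0.38 with an adjusted p of 1.22e-07 at 96 h. SPRY2 and SPRY4, inhibitors of receptor tyrosine kinases, fell at 96 h while ETV5, an ETS factor downstream of FGF, rose. SPRY4 went from 134 and 127 TPM at 48 h to 25.6 and 27.1 TPM at 96 h (−2.27 ± 0.26, adjusted p = 2.28e-08), and ETV5 had 14 and 9.31 TPM in cjESCs and 131 and 89.9 TPM at 96 h (3.14 ± 0.27, adjusted p = 8.85e-12). Of 12 tested LIF response genes, the receptor OSMR and the kinase PIM2 rose at 96 h, PIM2 from 63.2 and 79.4 to 366 and 307 TPM in the last step (2.22 ± 0.21, adjusted p = 2.92e-10). SOCS3 was not analysed here.

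Of 10 tested glucocorticoid receptor targets, none was a DEG at 12, 24 or 48 h, and TAT rose at 96 h. From 12 to 48 h only 0.429% to 0.813% of all genes rose and 0.339% to 0.643% fell against cjESCs. The lack of calls among 10 genes therefore says little about them. At 96 h 2.63% of all genes rose and 1.95% fell against cjESCs. FKBP5, a common readout of dexamethasone, had 112 and 126 TPM in cjESCs and 86.8 and 64.2 TPM at 12 h (−0.67). TAT (gene 100410667), tyrosine aminotransferase of the liver, had 1.79 and 2.95 TPM at 48 h and 112 and 120.5 TPM at 96 h (5.14 ± 0.38, adjusted p = 9.32e-13), and was lower than with BMP4 at 48 h, where that condition had 32.4 and 37 TPM (−3.42 ± 0.38, adjusted p = 2.09e-08). Of 11 retinoic acid genes tested, CYP26A1, the enzyme that degrades retinoic acid, fell at 96 h, from 128 and 136 TPM at 48 h to 4.84 and 4.14 TPM (−4.60 ± 0.39, adjusted p = 2.81e-11). No cell cycle gene of 11 tested was a DEG at any time, where at most 2.63% of all genes passed in either direction. Among 9 stress genes ATF3 fell at 96 h (−2.56 ± 0.38, adjusted p = 1.07e-06), and among 10 hypoxia genes SLC2A1, the glucose transporter, did so but not in leaving out either of 2 libraries. For SLC2A1 at 96 h against cjESCs, the log2 change was −1.85 (adjusted p = 2.76e-07) without SOX17 + LSE 96 h replicate 1 and −1.96 (adjusted p = 1.46e-07) without cjESC replicate 1. This SLC2A1 call was also lost with quantile normalization.

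Other genes led the changes at single times. At 12 h, after RSPO3, the largest rises of DEGs with a symbol were those of the transcriptional regulator RAI2 (3.47), the matrix protein TGFBI (3.45) and TCEAL5 (3.35). NANOS3, described above, came next, followed by the endotoxin coreceptor CD14 (3.16). CD14 (gene 100895453) had 91.2 and 109 TPM in cjESCs, 869 and 933 TPM at 12 h, 594 and 725 at 24 h, 415 and 461 at 48 h, and 377 and 536 TPM at 96 h. TGFBI had 31.1 and 25.9 TPM in cjESCs, 320.4 and 320.1 TPM at 12 h, 196 and 175 at 24 h, 75.6 and 68.9 at 48 h, and 59.1 and 94.4 TPM at 96 h. Both were highest at 12 h, and their later libraries were lower but still above cjESCs. At 48 h GDF6, a BMP-family ligand, had 56.7 and 48.6 TPM from 0.21 and 0.18 TPM (5.48 ± 0.37, adjusted p = 8.27e-14), and SCIN, an actin-severing protein, had 109 and 107 TPM from 1.27 and 3.15 TPM (5.15 ± 0.38, adjusted p = 6.85e-13). VCAN and NID2, components of matrix and basement membrane, were up from 24 h on. NID2 had 38.3 and 44.4 TPM at 24 h and 220.4 and 285 TPM at 96 h. Its change from cjESCs to 96 h was 5.08 ± 0.23 with an adjusted p of 4.36e-19. The call of the NID2 step from 12 to 24 h was lost in leaving out a single library. For NID2 at 24 h against the time before, the log2 change was 1.997 (adjusted p = 0.000649) without SOX17 + LSE 24 h replicate 2. This NID2 call was also lost with median-ratio scaling and with quantile normalization.

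At 96 h TCEAL5 stood second to GC in its change from cjESCs (7.15 ± 0.39, adjusted p = 4.27e-17). It had 13.7 and 13.2 TPM at 48 h and 209 and 185 TPM at 96 h. HHIP, a decoy receptor for hedgehog ligands, and GPR155 led the last step after TAT, HHIP from 1.06 and 1.59 to 79.8 and 51.7 TPM (4.82 ± 0.24, adjusted p = 5.46e-17) and GPR155 from 3.5 and 4.02 to 109.9 and 83.7 TPM (4.35 ± 0.27, adjusted p = 1.29e-14). Among the falling genes NPPB, the natriuretic peptide BNP, had 57.3 and 62.4 TPM in cjESCs and 4.86 and 3.98 TPM at 12 h (−3.49 ± 0.48, adjusted p = 1.87e-06), a call lost with log2(TPM + 0.1) (adjusted p = 0.0121). DIAPH2, a formin, fell at 12 h (−2.64) and was −0.64 at 96 h, with 33.6 and 23.7 TPM in cjESCs, 4.02 and 3.4 TPM at 12 h, 6.45 and 5.09 at 24 h, 6.96 and 8.45 at 48 h, and 20.9 and 15 TPM at 96 h. CLDN3, a tight junction protein, had 118 and 115 TPM and 6.35 and 7.94 TPM at 48 h (−3.86 ± 0.41, adjusted p = 6.43e-09).

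A change was called transient when a gene passed in 1 direction from cjESCs to 12 h and in the other from 12 to 48 h. By that rule 7 genes went up and then down and 2 went down and then up. Those named by their size were ESM1, EMP1, MGP, JAG1 and MMP9 upward and WNT8A and EOMES downward. As given above, the 12 h calls of WNT8A and EOMES were both lost in leaving out single libraries, so the downward class is not firm. MMP9 (gene 100415095), a matrix metalloproteinase, had 206 and 102 TPM in cjESCs, 651 and 690 TPM at 12 h, 213 and 280.5 at 24 h, 78.9 and 75.5 at 48 h, and 7.19 and 10.8 TPM at 96 h, with a rise of 2.20 ± 0.37 with an adjusted p of 4.89e-05 at 12 h. JAG1, a Notch ligand, had 5.08 and 3.63 TPM in cjESCs, 27.9 and 26.7 TPM at 12 h, 10.2 and 17 at 24 h, 4.92 and 5 at 48 h, and 7.03 and 7.86 TPM at 96 h (2.41 ± 0.23, adjusted p = 1.6e-09 at 12 h). ESM1, an endothelial proteoglycan, had 5.89 and 1.63 TPM in cjESCs, 39.5 and 17.2 TPM at 12 h, 4.13 and 3.78 at 24 h, 2.4 and 0.75 at 48 h, and 0.34 and 0.35 TPM at 96 h (2.67 ± 0.42, adjusted p = 1.73e-05 at 12 h). In all 3 the 12 h libraries were the highest of the course, and those of ESM1 differed from each other.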

How the data were processed

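RNA of sorted or whole-aggregate cells was made into poly(A) libraries and sequenced. The authors mapped the reads with STAR to the marmoset genome cj1700_1.1, dropped poorly mapped reads, estimated transcript abundance with RSEM, and deposited TPM for 14812 genes shared by marmoset and human; the tools, without versions, are also in the submitters' processing notes. TPM hold no read counts, so the depth of each library is unknown and a gene listed at 0 may be a failed estimate. The columns summed to 833848 to 838205 TPM.

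From these values log2(TPM + 1) was computed, genes reaching 1.5 in at least 1 library were kept (11197), and limma 3.58.1 (R 4.3.3) was fitted once with a mean for each of 27 groups of 2 libraries and an intensity trend (27 residual df; two-sided, Benjamini-Hochberg over all genes kept). The thresholds for DEGs follow the study, whose count-based tool was not used. In simulated data with 100 genes changed 6-fold among the 11197, 97 to 100 were called in each comparison. The changed genes were drawn only from those well above the floor in the reference group. Each gene was given the same normal spread in all groups. The simulation therefore does not cover low genes or genes whose spread differs between groups. Named genes were the 10 largest DEGs in each direction against cjESCs, the 5 largest for other comparisons and for transient changes, and members of 17 lists; other genes were chosen after their values were seen, and some members are not reported here. The libraries, lists and markers were chosen with earlier results of these data known. Replicates are described as biological duplicates of 1 line, and no 2 libraries held identical values. Alternatives were another pseudocount, no filter, 2 other scalings, no trend, smaller fits, a replicate block, and leaving out each library.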

Additional observations from a re-analysis of the deposited data

Results flagged for a closer look

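The 17 named genes examined were the DEGs with a symbol that differed most between SOX17 + LSE and SOX17 + BLSE at 24 or 48 h. For 6 of the 17, the difference at 48 h was itself different from that at 24 h, by the interaction term of the limma fit adjusted over 11197 genes. Because the 17 were picked for a large difference at a time that enters this term, that share carries no weight. Of all 11197 genes, 10 passed with a difference above 0 and 12 with a difference below 0. The interaction is the log2 difference without BMP4 relative to with BMP4 at 48 h minus the same at 24 h. It was −4.98 (adjusted p = 1.19e-06) for KRT72, −4.06 (adjusted p = 0.00187) for PRR9, −2.48 (adjusted p = 0.0018) for DLX5 and −2.20 (adjusted p = 0.00943) for SLC6A2. For NODAL it was 3.02 (adjusted p = 0.003) and for TUBB4A 2.37 (adjusted p = 0.00371). In the first 4 genes both SOX17 + BLSE libraries had a higher level at 48 h than at 24 h, and in NODAL and TUBB4A a lower one. MIXL1 (4.18, adjusted p = 0.0153), SAMD3 (3.10, adjusted p = 0.0199) and CER1 (2.47, adjusted p = 0.595), which were also higher without BMP4 at 48 h, did not pass this test.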

How the results depend on the processing

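Fits restricted to the 4 libraries of a comparison called 0 genes at 12, 24 and 48 h against cjESCs. At 96 h against cjESCs they called 360 (212 up, 148 down), all of them also DEGs in the main fit. They called 0 in the steps from 12 to 24 h and from 24 to 48 h, and 0 against SOX17 + BLSE at 12, 24 and 96 h. From 48 to 96 h they called 15 (7 up, 8 down), and against SOX17 + BLSE at 48 h 2 (both lower). Such fits have 2 residual degrees of freedom. Restricted to the libraries of the courses compared, the step from 12 to 24 h had 1 call and that from 24 to 48 h had 0, and with log2(TPM + 0.1) the latter had 3. Leaving out 1 library gave 74 to 101 DEGs at 12 h, 95 to 117 at 24 h, 151 to 179 at 48 h and 488 to 554 at 96 h against cjESCs, 141 to 211 from 48 to 96 h, and 7 to 11, 21 to 36, 102 to 125 and 80 to 102 against SOX17 + BLSE at 12, 24, 48 and 96 h. From 12 to 24 h it gave 2 to 6 (2 without SOX17 + LSE 24 h replicate 2), and from 24 to 48 h 5 to 9 (5 without that library). In these fits a lone library is assumed to vary like the other groups, and a call can be lost while its log2 change stays near the main value. The split of higher and lower calls moved most where few were called: from 12 to 24 h it was 3 and 1 with log2(TPM + 0.1) and 0 and 4 with either scaling. At 12 h against cjESCs it was 68 and 30 with log2(TPM + 0.1). At 96 h against SOX17 + BLSE it was 64 and 31 with log2(TPM + 0.1), 77 and 25 without SOX17 + LSE 96 h replicate 1, and 44 and 50 without SOX17 + BLSE 96 h replicate 1. The causes of these shifts were not tested.

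Of 270 values of named genes followed, 234 kept their call with log2(TPM + 0.1), 261 with median-ratio scaling, 260 with quantile normalization, 266 without the filter, 268 without the trend and 72 in fits of 4 libraries, and none changed direction. Same-numbered libraries did not deviate together throughout (correlations of −0.0509 to 0.289 over the 11 comparisons), so the numbers were not taken as pairs. With a replicate block all 270 values kept their call, and the counts in the 11 comparisons were those without it (86, 101, 163 and 512 against cjESCs at 12, 24, 48 and 96 h).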

Other observations

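The genes below were chosen after their values were seen, so they are described one by one. FOXJ1, the transcription factor of motile ciliogenesis, had 289 and 219 TPM in cjESCs, 55.8 and 42.3 TPM at 12 h, 57.7 and 48.1 at 24 h, 22.4 and 18.2 at 48 h, and 5.96 and 11.5 TPM at 96 h. Its log2 change from cjESCs was −2.35 ± 0.45 with an adjusted p of 0.000303 at 12 h and −4.76 ± 0.45 with an adjusted p of 6.43e-11 at 96 h, with no overlap between any time and cjESCs. CFAP45, a protein inside axonemal microtubules, had 57.5 and 86.2 TPM in cjESCs, 13.3 and 10.3 TPM at 12 h, 5.39 and 5.38 at 24 h, 4.67 and 1.43 at 48 h, and 0.92 and 2.82 TPM at 96 h, a change of −2.49 ± 0.31 with an adjusted p of 2.61e-07 at 12 h and of −4.72 ± 0.31 with an adjusted p of 5.26e-15 at 96 h. CFAP126 had 37.7 and 54.5 TPM in cjESCs and 10.5 and 4.14 TPM at 12 h and was listed at 0 in every library of 48 and 96 h. For DNALI1, a dynein light intermediate chain of the axoneme, the change was −2.06 at 12 h and −3.11 at 96 h, and for TEKT1, a tektin, it was −1.22 at 12 h, where it did not pass, and −2.27 at 96 h. The call of CFAP126 at 12 h was lost in leaving out single libraries. For CFAP126 at 12 h against cjESCs, the log2 change was −2.01 (adjusted p = 0.0624) without SOX17 + LSE 12 h replicate 2 and −2.33 (adjusted p = 0.02) without cjESC replicate 2. This CFAP126 call was also lost with log2(TPM + 0.1) and in the fit of the courses compared alone. The 12 h call of CFAP45 was lost in the fit of the courses compared alone (adjusted p = 0.0136).

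CCN2, a matrix protein and target of YAP, fell later in the course, with 67.6 and 54.4 TPM in cjESCs, 85.6 and 78.8 TPM at 12 h, 20.1 and 23.5 at 24 h, 10.8 and 7.88 at 48 h, and 3.43 and 5.44 TPM at 96 h. It was not below cjESCs at 12 h (0.43) and fell at 48 h (−2.59 ± 0.38, adjusted p = 2.46e-06) and 96 h (−3.53 ± 0.38, adjusted p = 1.13e-09), and it was lower without BMP4 than with it at 24 h (−2.33). The muscle actin ACTA1 fell from 24 h (−2.17) to 96 h (−4.42), with 91.7 and 67.6 TPM in cjESCs and 1.11 and 5.58 TPM at 96 h, and the actin-binding protein TAGLN2 passed at 96 h alone, from 602 and 562 TPM at 48 h to 97.8 and 148 TPM (−2.27 ± 0.14, adjusted p = 1.08e-14).

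HOXA10, a posterior HOX gene, had 1.99 and 3.2 TPM in cjESCs, 13.6 and 19.7 TPM at 12 h, 6.66 and 8.84 at 24 h, 11.9 and 11.9 at 48 h, and 1.18 and 3.34 TPM at 96 h. It rose at 12 h (2.30 ± 0.24, adjusted p = 1.2e-08) and fell from 48 to 96 h (−2.07 ± 0.24, adjusted p = 3.01e-08). Its neighbour HOXA11 had 1.92 and 2.18 TPM in cjESCs, 14.1 and 20.4 TPM at 12 h, 8.72 and 7.04 at 24 h, 8.3 and 6.37 at 48 h, and 0.26 and 1.29 TPM at 96 h, with a rise of 2.56 ± 0.27 with an adjusted p of 1.25e-08 at 12 h and a step of −2.29 ± 0.27 with an adjusted p of 3.91e-08 from 48 to 96 h. EPAS1, a hypoxia-inducible factor of endothelium, and RUNX1, a factor of blood formation, rose at 12, 24 and 48 h, by 2.08, 2.23 and 2.31 and by 2.25, 2.18 and 2.40.

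IHH and SHH, ligands of the hedgehog pathway, rose at 48 h. IHH, the ligand of visceral endoderm and gut, had 0.55 and 0.33 TPM in cjESCs, 0 and 0.63 TPM at 12 h, 0.86 and 0.52 at 24 h, 9.94 and 12 at 48 h, and 34.8 and 79.9 TPM at 96 h, with steps of 2.83 ± 0.42 with an adjusted p of 4.99e-05 from 24 to 48 h and 2.17 ± 0.42 with an adjusted p of 0.000113 from 48 to 96 h, and at 96 h it had 12 and 24.5 TPM with BMP4 (1.56 without relative to with BMP4, under the 4-fold threshold). The first of these steps did not pass with log2(TPM + 0.1) (adjusted p = 0.0277) or in the fit of the courses compared alone (adjusted p = 0.0321). SHH passed at 48 h, with 8.11 and 9.13 TPM from 0.86 and 1.35 TPM (2.20 ± 0.30, adjusted p = 7.86e-07), and was higher without BMP4 than with it at that time (2.20 ± 0.30, adjusted p = 1.28e-06). GLI1, a transcriptional target of the pathway, was not a DEG against cjESCs at any time, but at 48 h it too was higher without BMP4, at 12.7 and 13.7 TPM against 1.09 and 1.8 TPM (2.55 ± 0.25, adjusted p = 2.56e-09). The secreted phosphoprotein SPP1 had 8.7 and 12.3 TPM in cjESCs, 12 and 9.97 TPM at 12 h, 34.9 and 15.8 at 24 h, 83.1 and 95.1 at 48 h, and 8.34 and 13.5 TPM at 96 h, and rose at 48 h (2.98 ± 0.46, adjusted p = 5.56e-06) before falling at 96 h (−2.95 ± 0.46, adjusted p = 4.78e-06). It was higher without BMP4 than with it at 48 and 96 h (3.22 and 2.83).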
